A study of Mus musculus with 18 samples.

Results

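The 100 genes whose RNA was most lowered in light-damaged retinas of vehicle-treated mice were examined in 9 BALB/cJ mice, an albino strain. The wild-type mice, young adults of both sexes, fell into 3 groups of 3. Naïve mice had no light and are labelled as having had no treatment. Vehicle-treated mice were exposed to white light of 15000 lux for 1 h, after dark adaptation and pupil dilation, and received DMSO as vehicle, and TD139-treated mice were exposed to the same light and received TD139 at 15 mg/kg, a thiodigalactoside that inhibits galectin-3. Both agents were injected daily into the peritoneum from the day before the light, and whole retinas were taken 4 days after it. No group had light without an injection, so the light and the vehicle cannot be told apart in the comparison with naïve mice. The members were chosen by their level with vehicle relative to naïve. Of 23420 genes in the tables, 13116 averaged 50 or more counts per mouse, and in 1423 of these (10.8% of genes) every vehicle-treated mouse lay below every naïve mouse in CPM, the count scaled to the gene reads of its mouse. The 100 with the lowest ratio of mean CPM, vehicle-treated to naïve, were taken. Since this ratio chose them, their fall from naïve to vehicle-treated mice is a description and was not tested.

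Rods make up most of the cells of the mouse retina and are the cells that bright light destroys in albino mice. They capture light in the outer segment, a modified primary cilium filled with membrane discs, where rhodopsin, transducin and a phosphodiesterase lower cyclic GMP, and where a kinase, an arrestin and a GTPase-accelerating complex switch the response off. The outer segment is joined to the cell body by a connecting cilium and is held straight by an axoneme of microtubules, and transcription factors such as CRX, NRL and ESRRB keep rod genes active.

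Among the members, mean CPM in vehicle-treated mice was 0.384 to 0.618 times that in naïve mice, with a median ratio of 0.563, whereas the median over the 13116 genes was 1.053. Just inside the threshold lay Atp7b at 0.611, Hs3st3b1 and 1700030J22Rik at 0.614, and Pdc and Tob2 at 0.618. Just outside it lay Klhl3 at 0.619, Spata1 at 0.620, Ppargc1b at 0.621, and Ccnl1 and Pla2r1 at 0.622. The summed CPM of the members ranged from 15670 to 17408 without light, from 8329 to 10580 with vehicle and from 13202 to 19824 with TD139. Individual genes spanned a wide range of depth, from a mean of 52.7 to 57280 counts per mouse with a median of 668. RNA came from whole retinas, so fewer cells of a type and less RNA per cell cannot be told apart. Differences of TD139-treated mice from the other groups were tested with edgeR's quasi-likelihood test over 15196 genes, and an adjusted p under 0.05 was called.

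The libraries held 26171887 to 30201517 reads on genes per mouse. Markers of lens, a tissue that should be absent from a dissected retina, summed to 10433 CPM in vehicle-treated mouse 2 and to at most 462 CPM in every other mouse. Without that mouse, 75 members were higher with TD139 than with vehicle by the test described further on (12.5% of all tested genes), against 77 with it (17.2%). Xist and the Y-linked genes marked 1 male and 2 females among naïve mice, 2 males and 1 female among vehicle-treated mice, and 2 males and 1 female among TD139-treated mice. Numbers in the labels name the mice and do not pair them across groups.

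**Figure D1:**
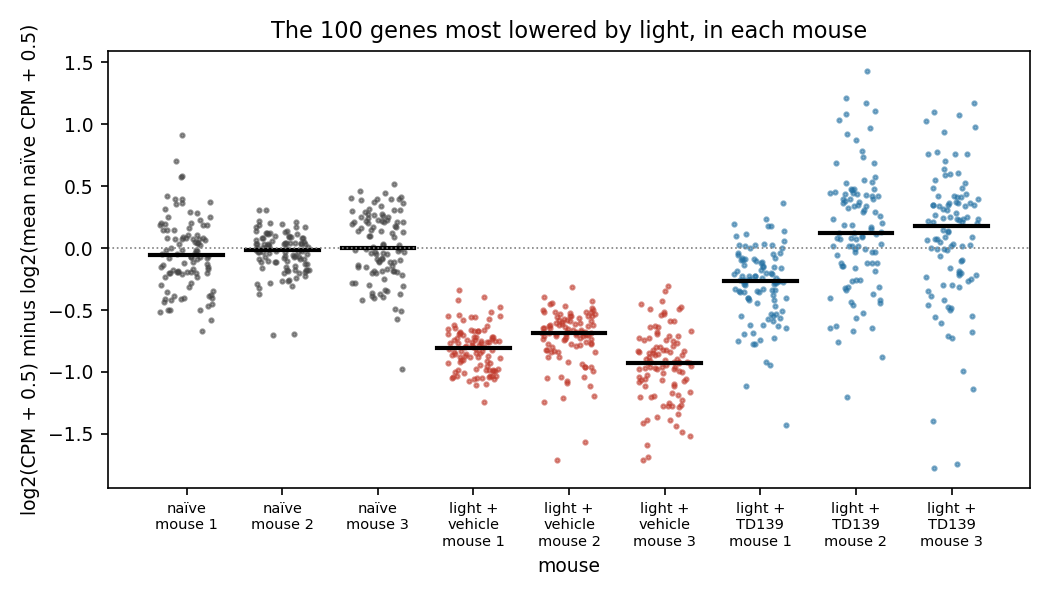
Each point is 1 of the 100 members in 1 mouse, as log2(CPM + 0.5) minus the log2 of the naïve mean CPM + 0.5, and black bars are medians over members. Points of the 3 vehicle-treated mice lie below 0, as the rule demands, while the medians of TD139-treated mice 2 and 3 lie above 0 and that of TD139-treated mouse 1 lies between the other groups.

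The cell type of the members was read from 16 lists of marker genes. The list of rod and shared photoreceptor genes held 11 members, and none of the other 15 lists, which covered cones, the other retinal neurons, Müller glia, astrocytes, microglia, vessels, pigment epithelium, stroma, lens, cornea and blood, held any. Genes on a cell type list were 11% of the members and 2.17% of the 13116 genes. Of the 74 rod genes measured, 73 had a lower mean with vehicle than in naïve mice, with a median ratio of 0.700. In 57 of them (77.0%) every vehicle-treated mouse lay below every naïve mouse, against 10.8% of all genes. Cone genes had a median ratio of 0.928 with 2 of 16 not overlapping, and bipolar cell genes had one of 1.039 with 3 of 28. The median ratio was 1.704 for Müller glia and 5.04 for microglia. The remaining 89 members were on no cell type list.

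**Figure D2:**
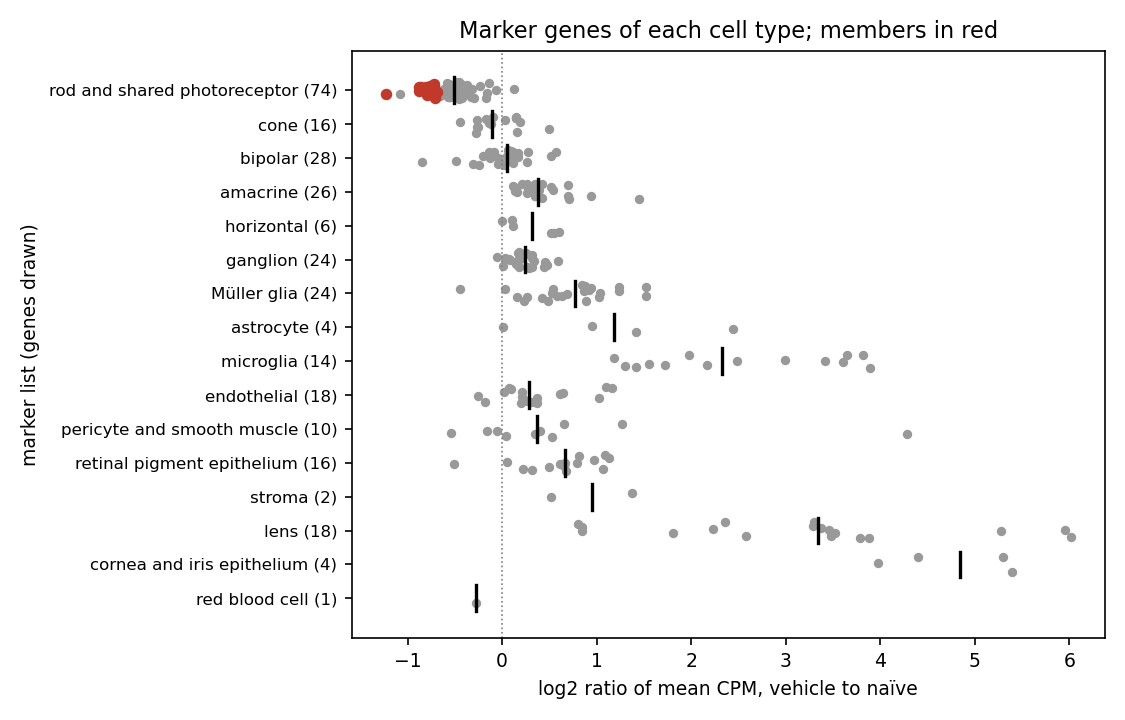
Each point is a marker gene averaging 50 or more counts per mouse, placed by the log2 ratio of mean CPM in vehicle-treated to naïve mice, in a row for each cell type list; black bars are medians. Red points, the 11 members, all sit in the row of rod and shared photoreceptor genes, whose median lies left of 0.

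Within the phototransduction cascade, the members on the list were Grk1, Rgs9bp, Pdc and Kcnj14. Grk1, rhodopsin kinase, starts the shut-off of light-activated rhodopsin. Its level was 1783, 1881 and 2218 CPM in naïve mice, 1130.1, 1224 and 1001 CPM in vehicle-treated mice and 1627, 2405 and 2309.9 CPM in TD139-treated mice. Every TD139-treated mouse exceeded every vehicle-treated mouse (log2 fold change 1.01 ± 0.17 (SE), adjusted p = 0.00568), and TD139-treated and naïve mice overlapped. Rgs9bp anchors the GTPase-accelerating protein RGS9 to the disc membrane. It was at 789.8, 734 and 964 CPM in naïve mice, 490.5, 505 and 436 CPM in vehicle-treated mice and 681, 1091 and 1059 CPM in TD139-treated mice, and again the TD139-treated mice were all above the vehicle-treated ones (log2 fold change 1.08 ± 0.20 (SE), adjusted p = 0.0061). Both genes act on the inactivation side of the cascade.

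In Pdc and Kcnj14 the difference between TD139-treated and vehicle-treated mice was smaller. Pdc encodes phosducin, which binds the βγ subunits of transducin, and it had the most reads of all members. Its level was 3015, 2333 and 2586 CPM in naïve mice, 1610.3, 1809.98 and 1481 CPM in vehicle-treated mice and 1722, 2373 and 1813 CPM in TD139-treated mice. TD139-treated mouse 1 and mouse 3 lay close to the highest vehicle-treated mouse, the groups overlapped, and the difference did not pass the test (log2 fold change 0.36 ± 0.16 (SE), adjusted p = 0.105). Over the alternatives its adjusted p ran from 0.0364 without TD139-treated mouse 1 to 0.687 with an offset for transcript length and GC content, where the log2 fold change was 0.087. Kcnj14, an inward rectifier potassium channel, was at 444, 309 and 261 CPM in naïve mice, 175, 209 and 166 CPM in vehicle-treated mice and 231, 356 and 294 CPM in TD139-treated mice. It was higher with TD139 than with vehicle (log2 fold change 0.77 ± 0.23 (SE), adjusted p = 0.029), a call that was lost without vehicle-treated mouse 1 or 3 and without TD139-treated mouse 2 or 3 (highest adjusted p = 0.118). Of the 37 phototransduction genes tested, 18 were higher and 1 was lower with TD139 than with vehicle, against 17.2% and 16.2% of all tested genes. The 33 phototransduction genes that were not members had a median log2 fold change of 0.41 between TD139-treated and vehicle-treated mice.

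Crxos1 and Esrrb were the members on the list of photoreceptor transcription factors. Crxos1, now named Crxos, is a homeobox gene beside Crx and was the second lowest of all members, with a ratio of 0.427. It was at 16.1, 13.6 and 17.3 CPM in naïve mice, 7.28, 4.97 and 7.84 CPM in vehicle-treated mice and 13.2, 12.4 and 16.5 CPM in TD139-treated mice. The difference between TD139-treated and vehicle-treated mice was larger than the spread between mice (log2 fold change 1.16 ± 0.19 (SE), adjusted p = 0.00568). Esrrb, an orphan nuclear receptor of rods, was at 585, 531 and 512 CPM in naïve mice, 274, 339.96 and 272 CPM in vehicle-treated mice and 393, 500.04 and 441 CPM in TD139-treated mice. TD139-treated mice stood above all vehicle-treated mice (log2 fold change 0.68 ± 0.14 (SE), adjusted p = 0.00756) and below all naïve mice, and the latter difference did not pass the test (log2 fold change -0.29 ± 0.14 (SE), adjusted p = 0.195). Of the 18 factors listed, 12 were higher and 0 lower with TD139 than with vehicle (17.2% and 16.2% of all tested genes).

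Rdh8, which reduces all-trans-retinal in outer segments, and Ppef2, a calcium-regulated phosphatase of photoreceptors, were the remaining rod genes outside the cilium. Rdh8 was at 62.7, 106 and 131 CPM in naïve mice, 56.4, 62.2 and 47.6 CPM in vehicle-treated mice and 84.9, 119.9 and 129 CPM in TD139-treated mice. Naïve mouse 1 was little above the highest vehicle-treated mouse, and the difference between TD139-treated and vehicle-treated mice passed the test (log2 fold change 1.10 ± 0.28 (SE), adjusted p = 0.0174) but not without vehicle-treated mouse 3, TD139-treated mouse 2 or TD139-treated mouse 3, where adjusted p reached 0.0720. For Ppef2, which had 266, 254 and 259 CPM in naïve mice, 152, 175 and 144 CPM in vehicle-treated mice and 206, 300.1 and 308 CPM in TD139-treated mice, the naïve mice lay close together and TD139-treated mice spread on both sides of them (log2 fold change 0.88 ± 0.17 (SE), adjusted p = 0.00623 against vehicle-treated mice).

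**Figure D3:**
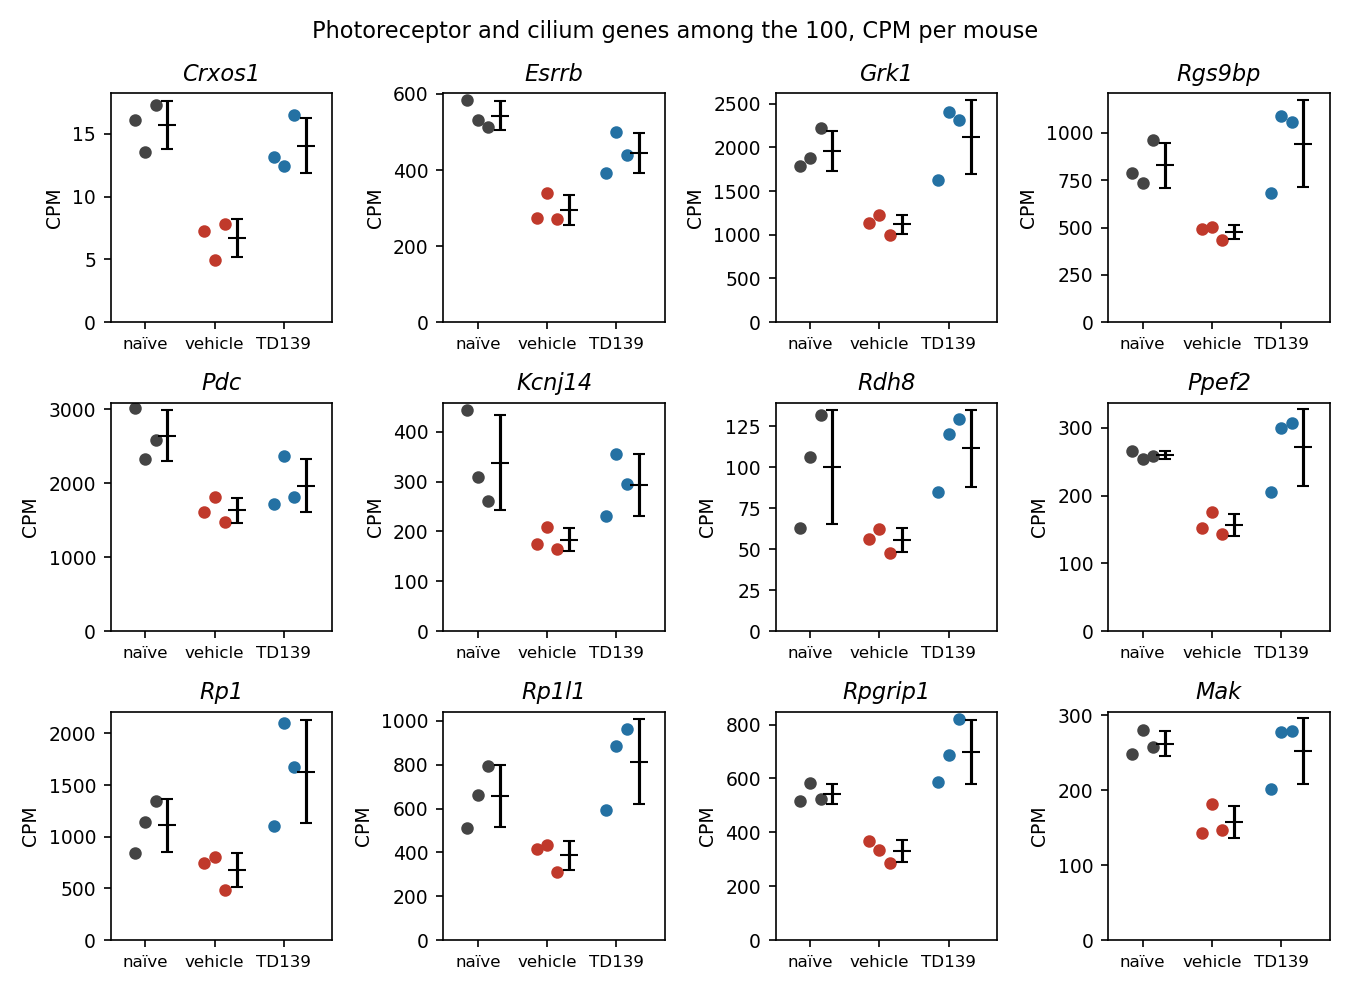
CPM of 12 members on the photoreceptor or cilium lists, each point a mouse, with the mean ± SD (n = 3) to the right of each group and axes from 0. Every TD139-treated mouse lies above every vehicle-treated mouse in all panels but that of Pdc, and TD139-treated mouse 1, drawn leftmost, is the lowest of its group in all panels but that of Crxos1.

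The cilium and axoneme list held 9 members, some of which, Rp1 and Rp1l1 among them, are also rod genes. Rp1 encodes a microtubule protein of the outer segment axoneme. It was at 841, 1144 and 1344 CPM in naïve mice, 743, 801 and 487 CPM in vehicle-treated mice and 1108, 2105 and 1675 CPM in TD139-treated mice. Levels in TD139-treated mice were higher than in vehicle-treated mice (log2 fold change 1.36 ± 0.30 (SE), adjusted p = 0.0116), while the difference from naïve mice did not pass the test (log2 fold change 0.56 ± 0.29 (SE), adjusted p = 0.239). Rp1l1, its relative and partner in the axoneme, was at 512, 661 and 796 CPM in naïve mice, 418, 433 and 311 CPM in vehicle-treated mice and 595, 886 and 963 CPM in TD139-treated mice (log2 fold change 1.16 ± 0.23 (SE), adjusted p = 0.00771 for TD139-treated against vehicle-treated mice).

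Rpgrip1, which holds RPGR at the connecting cilium, was one of 2 members with every TD139-treated mouse above every naïve mouse; the other was Syne3, which encodes a nesprin of the nuclear envelope. Rpgrip1 was at 516, 585 and 524 CPM in naïve mice, 369.7, 334 and 288 CPM in vehicle-treated mice and 586, 686 and 822 CPM in TD139-treated mice. It passed the test against vehicle-treated mice (log2 fold change 1.17 ± 0.15 (SE), adjusted p = 0.005) and not against naïve mice (log2 fold change 0.36 ± 0.15 (SE), adjusted p = 0.133).

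Mak, a kinase of the connecting cilium that limits axoneme length, was at 248, 281 and 258 CPM in naïve mice, 142, 181 and 147 CPM in vehicle-treated mice and 202, 278 and 279 CPM in TD139-treated mice (log2 fold change 0.78 ± 0.16 (SE), adjusted p = 0.0071 for TD139-treated against vehicle-treated mice). Arl13b, a small GTPase of the ciliary membrane, was at 57.7, 63.1 and 79.98 CPM in naïve mice, 40.4, 43.9 and 32.3 CPM in vehicle-treated mice and 60.1, 91.9 and 78.9 CPM in TD139-treated mice (log2 fold change 1.08 ± 0.20 (SE), adjusted p = 0.00639). In both genes all TD139-treated mice exceeded all vehicle-treated mice and overlapped naïve mice. Ttc21a, a relative of an intraflagellar transport subunit, had a ratio of 0.440 and was at 2.93, 4.68 and 5.58 CPM in naïve mice, 1.57, 1.57 and 2.66 CPM in vehicle-treated mice and 4.2, 4.73 and 5.83 CPM in TD139-treated mice (log2 fold change 1.44 ± 0.30 (SE), adjusted p = 0.00756). It overlaps Cx3cr1 on the opposite strand, and whether the counting used strand is not given in the sources used here.

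The last 2 cilium genes, Ttc18 (now Cfap70) and E030019B06Rik (now Cfap46), belong to the machinery of motile axonemes. Ttc18 was at 9.61, 10.3 and 7.44 CPM in naïve mice, 4.00, 5.43 and 4.49 CPM in vehicle-treated mice and 8.64, 10.2 and 10.2 CPM in TD139-treated mice (log2 fold change 1.15 ± 0.20 (SE), adjusted p = 0.00568). E030019B06Rik was lower in reads, at 3.08, 4.87 and 3.58 CPM in naïve mice, 1.61, 2.11 and 2.91 CPM in vehicle-treated mice and 3.94, 3.91 and 3.24 CPM in TD139-treated mice, and its call against vehicle-treated mice (log2 fold change 0.83 ± 0.27 (SE), adjusted p = 0.0354) was lost with the length and GC offset described further on, without vehicle-treated mouse 1 or 2 and without any 1 of the TD139-treated mice (highest adjusted p = 0.121). Of 83 cilium genes tested, 38 were higher and 5 lower with TD139 than with vehicle, against 17.2% and 16.2% of all tested genes, and the 74 that were not members had a median log2 fold change of 0.26. Other axonemal genes off the list, named after their values were seen, were 1700019L03Rik (now Cfap157), Wdr78 and Casc1. Wdr78, an assembly factor of axonemal dynein, was at 58.2, 61.3 and 61.4 CPM in naïve mice, 31.5, 40.4 and 26.6 CPM in vehicle-treated mice and 53.1, 76.8 and 64.2 CPM in TD139-treated mice (log2 fold change 1.07 ± 0.19 (SE), adjusted p = 0.00588). 1700019L03Rik was at 3.93, 3.12 and 3.00 CPM in naïve mice, 1.38, 1.89 and 1.8 CPM in vehicle-treated mice and 2.52, 3.68 and 4.08 CPM in TD139-treated mice (log2 fold change 1.11 ± 0.28 (SE), adjusted p = 0.0135), and its call was lost without TD139-treated mouse 2 or 3 (highest adjusted p = 0.0614). In Casc1, at 6.57, 6.77 and 9.51 CPM in naïve mice, 3.47, 4.54 and 3.7 CPM in vehicle-treated mice and 4.24, 4.73 and 7.09 CPM in TD139-treated mice, TD139-treated and vehicle-treated mice overlapped and the difference did not pass the test (log2 fold change 0.54 ± 0.26 (SE), adjusted p = 0.117).

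The lists of circadian clock genes, photoreceptor synapse genes and fatty acid and phospholipid genes held 0 members. Photoreceptor synapse genes had a median ratio of 0.819, and in 13 of 25 every vehicle-treated mouse was below every naïve mouse, against 10.8% of all genes. The corresponding values were 1.004 and 1 of 25 for the circadian clock, and 1.047 and 10 of 30 for fatty acids and phospholipids. TD139-treated mice were higher than vehicle-treated mice for 16 of the 25 synapse genes and lower for 2, against 17.2% and 16.2% of all tested genes. The synapse list is not separate from the rod list, as both hold Cacna1f, Cacna2d4, Cabp4, Cplx4, Lrit1 and Lrit2.

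Promoters of 84 members were found in the RefSeq promoter table (GRCm38.p6, windows of 250 bases before and 50 after a transcript start, 110 windows in all). They were searched on both strands for TAATCC, the core bound by CRX and OTX proteins, for AGGTCA, a motif of nuclear receptors, and for TGCTGA, a motif of MAF proteins such as NRL. These letters do not overlap each other. TAATCC was in 9.09% of the members' windows and 5.86% of the windows of all genes with the minimum count, AGGTCA in 14.5% and 12.2%, and TGCTGA in 18.2% and 15.6%. The windows of the whole rod list held them more often, with 31.3%, 22.4% and 34.3%. Of the members on the photoreceptor and cilium lists, 5 promoters with a match are printed, chosen after the matches were seen, so that the letters can be read in place; capitals mark any of these motifs or its reverse complement, and each window is written 5′ to 3′ on the strand of its gene.
Grk1, chr8:13404831-13405130, plus strand: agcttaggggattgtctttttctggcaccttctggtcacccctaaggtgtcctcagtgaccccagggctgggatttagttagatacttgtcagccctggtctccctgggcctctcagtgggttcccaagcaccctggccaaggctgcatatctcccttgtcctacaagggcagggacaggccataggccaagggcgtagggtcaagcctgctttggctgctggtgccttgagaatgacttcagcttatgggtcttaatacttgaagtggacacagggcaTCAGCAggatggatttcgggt
Rdh8, chr9:20818244-20818543, plus strand: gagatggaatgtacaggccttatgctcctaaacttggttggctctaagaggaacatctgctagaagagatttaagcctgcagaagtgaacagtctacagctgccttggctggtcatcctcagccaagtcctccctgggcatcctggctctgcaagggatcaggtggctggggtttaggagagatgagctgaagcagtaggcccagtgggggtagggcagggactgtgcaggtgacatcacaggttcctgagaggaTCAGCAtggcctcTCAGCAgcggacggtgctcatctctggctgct
Ppef2, chr5:92256229-92256528, minus strand: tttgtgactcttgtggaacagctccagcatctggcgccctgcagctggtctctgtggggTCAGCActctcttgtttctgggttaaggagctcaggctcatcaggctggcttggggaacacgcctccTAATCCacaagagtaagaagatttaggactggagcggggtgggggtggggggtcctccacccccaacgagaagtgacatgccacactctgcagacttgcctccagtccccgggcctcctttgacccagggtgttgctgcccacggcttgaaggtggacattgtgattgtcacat
Rpgrip1, chr14:52110653-52110952, plus strand: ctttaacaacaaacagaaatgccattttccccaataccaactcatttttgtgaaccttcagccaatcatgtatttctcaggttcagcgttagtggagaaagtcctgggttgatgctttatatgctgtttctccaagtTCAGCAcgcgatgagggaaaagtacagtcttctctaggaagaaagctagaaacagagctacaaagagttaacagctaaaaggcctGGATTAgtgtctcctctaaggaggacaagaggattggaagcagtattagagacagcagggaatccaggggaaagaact
Mak, chr13:41070416-41070715, minus strand: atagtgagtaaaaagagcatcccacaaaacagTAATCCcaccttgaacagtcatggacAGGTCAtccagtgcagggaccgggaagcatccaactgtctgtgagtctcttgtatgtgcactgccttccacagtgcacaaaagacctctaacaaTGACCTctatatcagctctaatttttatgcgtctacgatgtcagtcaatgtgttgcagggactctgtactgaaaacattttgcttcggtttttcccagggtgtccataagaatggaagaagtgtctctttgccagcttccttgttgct
The windows of Ppef2, Rpgrip1 and Mak each held TAATCC once, as GGATTA in Rpgrip1. Rdh8 held TGCTGA 2 times, as TCAGCA, and Grk1, Ppef2 and Rpgrip1 held it once. Mak held AGGTCA 2 times. Of the members on these lists that are not printed, Crxos1 and Arl13b held TGCTGA, and Ttc21a and E030019B06Rik held AGGTCA, each once. A match is a description of the sequence and not a bound site.

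Beyond photoreceptor genes, the lowest ratios belonged to genes of mixed function. Hdc, histidine decarboxylase, which makes histamine, had the lowest ratio of all at 0.384. It was at 21.6, 6.73 and 5.47 CPM in naïve mice, 5.27, 4.65 and 3.09 CPM in vehicle-treated mice and 5.62, 10.9 and 6.86 CPM in TD139-treated mice. Naïve mouse 1 stood far above the other 2 naïve mice, which lay just over the highest vehicle-treated mouse, and the difference between TD139-treated and vehicle-treated mice did not pass the test (log2 fold change 0.94 ± 0.54 (SE), adjusted p = 0.201), with an adjusted p over the alternatives from 0.0341 without naïve mouse 1 to 0.504 without TD139-treated mouse 2. Fndc1, which encodes a protein with fibronectin type III domains, was at 58.4, 50.7 and 38.1 CPM in naïve mice, 24.2, 22.99 and 18.5 CPM in vehicle-treated mice and 46.2, 62.2 and 63.2 CPM in TD139-treated mice, with all TD139-treated mice above the vehicle-treated ones (log2 fold change 1.48 ± 0.20 (SE), adjusted p = 0.005).

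Kif20b, a kinesin of dividing cells, was at 4.68, 3.61 and 4.11 CPM in naïve mice, 1.98, 2.29 and 1.51 CPM in vehicle-treated mice and 3.36, 4.11 and 4.12 CPM in TD139-treated mice (log2 fold change 1.09 ± 0.25 (SE), adjusted p = 0.0103), and its call was lost with the length and GC offset (adjusted p = 0.0800). Mfap1a, a splicing factor gene with a near-identical copy, Mfap1b, between which reads can be split, was at 16.4, 15.99 and 23.96 CPM in naïve mice, 14.7, 5.4 and 5.5 CPM in vehicle-treated mice and 14.8, 15.5 and 5.26 CPM in TD139-treated mice. Its levels formed a high set with all naïve mice, vehicle-treated mouse 1 and TD139-treated mice 1 and 2, and a low set with the other 3 mice.

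Of the 10 lowest ratios, 3 were gene models without an assigned function. 1600014C23Rik was at 7.24, 5.09 and 4.29 CPM in naïve mice, 2.43, 3.47 and 1.51 CPM in vehicle-treated mice and 2.29, 2.12 and 2.25 CPM in TD139-treated mice, and TD139-treated mice lay within the range of the vehicle-treated ones. Gm7616, an antisense RNA that overlaps the rod gene Nr2e3 on the opposite strand, was at 4.68, 7.55 and 8.26 CPM in naïve mice, 3.51, 3.61 and 2.12 CPM in vehicle-treated mice and 5.31, 5.17 and 6.52 CPM in TD139-treated mice, where Nr2e3 averaged 20609 counts per mouse and Gm7616 142 (log2 fold change 0.96 ± 0.28 (SE), adjusted p = 0.023), and its call was lost without vehicle-treated mouse 3, TD139-treated mouse 2 or TD139-treated mouse 3 (highest adjusted p = 0.0897). Whether these reads came from Nr2e3 was not tested. 1700020D05Rik overlaps Snx32 on the same strand, so the counting could split reads between them, and it was at 10.8, 5.61 and 4.83 CPM in naïve mice, 3.62, 3.79 and 2.3 CPM in vehicle-treated mice and 7.07, 8.97 and 9.57 CPM in TD139-treated mice (log2 fold change 1.49 ± 0.33 (SE), adjusted p = 0.00918). Genes with provisional symbols (Gm, Rik or accession-like) were 15% of the members and 5.77% of the 13116 genes. Some of these have since been named, as 1700019L03Rik (now Cfap157) and E030019B06Rik (now Cfap46) have.

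Some members on no list are known from photoreceptors or from inflammation and were named after their values were seen. Fam161a, a protein of the connecting cilium, was at 203, 216 and 210.2 CPM in naïve mice, 109, 128 and 99.97 CPM in vehicle-treated mice and 172, 213 and 244 CPM in TD139-treated mice (log2 fold change 0.99 ± 0.15 (SE), adjusted p = 0.005). Casz1, a zinc finger factor of rods, was at 241, 333 and 448 CPM in naïve mice, 173, 205 and 183 CPM in vehicle-treated mice and 239.9, 400.4 and 425 CPM in TD139-treated mice (log2 fold change 1.02 ± 0.27 (SE), adjusted p = 0.0205). Tnfaip3 encodes A20, which restrains NF-κB signalling. It was at 353, 263 and 248 CPM in naïve mice, 145, 185 and 109 CPM in vehicle-treated mice and 235, 402 and 403 CPM in TD139-treated mice, with TD139-treated mice 2 and 3 above every naïve mouse (log2 fold change 1.33 ± 0.28 (SE), adjusted p = 0.0107). Rabgef1, an exchange factor for Rab5 that also limits inflammatory signalling, was at 713, 506 and 377 CPM in naïve mice, 281, 314 and 219 CPM in vehicle-treated mice and 419, 658 and 626 CPM in TD139-treated mice (log2 fold change 1.16 ± 0.27 (SE), adjusted p = 0.0142), and Jag1, a Notch ligand, was at 132, 102 and 139.6 CPM in naïve mice, 58.7, 80.5 and 52.7 CPM in vehicle-treated mice and 84.9, 173 and 174 CPM in TD139-treated mice (log2 fold change 1.26 ± 0.32 (SE), adjusted p = 0.0188). Hk2, a hexokinase of glycolysis, overlapped between naïve and TD139-treated mice at 324, 278 and 476 CPM in naïve mice, 196, 206 and 206 CPM in vehicle-treated mice and 209, 358 and 302 CPM in TD139-treated mice but did not pass the test against vehicle-treated mice (log2 fold change 0.61 ± 0.24 (SE), adjusted p = 0.0716). Of these genes, the calls of Casz1, Tnfaip3, Rabgef1 and Jag1 were each lost without TD139-treated mouse 2 (adjusted p = 0.0839, 0.0512, 0.0641 and 0.0740), and those of Casz1, Rabgef1 and Jag1 also without vehicle-treated mouse 3 or TD139-treated mouse 3. Casz1 and Jag1 lost theirs without vehicle-treated mouse 1 too, and Jag1 with the length and GC offset.

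By position on GRCm38, 12 of the 98 members with a GENCODE position formed 6 pairs within 100 kb of each other. The share of all genes in such pairs was not computed, so the count is a description only. F11 (chr8:45241174-45262031) and Klkb1 (chr8:45266689-45294859), which encode the related plasma proteases factor XI and prekallikrein, lie in tandem on the minus strand with 4657 bases between them. The antisense RNAs 1700119H24Rik and E130310I04Rik on chromosome 16 are 3845 bases apart, and both overlap Mylk on the opposite strand, so their reads too may be shared with the partner. The other pairs were Ttc16 with 1700019L03Rik, Slx4ip with Jag1, Insl5 with Wdr78, and Mss51 with Ttc18. Paired genes did not always move alike in TD139-treated mice. Insl5 was 10.2% and Wdr78 was 109.5% of the way from the vehicle-treated to the naïve level. Their transcripts differ in length, at 695 and 4045 nt. Corrected for length and GC content as described further on, their positions were 61.4% and 92.8%.

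The place of TD139-treated mice was measured by comparing them with each of the other groups. Both of those groups took part in choosing the members, so the comparisons share mice with the choice and with each other. Every TD139-treated mouse was above every vehicle-treated mouse in 82 members, against 23.7% of all genes, and in 0 members was every TD139-treated mouse below, against 29.8%. In edgeR's test, 77 members were higher with TD139 than with vehicle, against 17.2% of the tested genes, and 0 were lower, against 16.2%. The median log2 fold change of the members was 1.00, with a range of -0.12 to 2.09, beside -0.02 over all tested genes. When each of the 9 mice was left out in turn, 46 of the 77 were called in all 9 fits. The count was 47 without TD139-treated mouse 2, 54 without TD139-treated mouse 3 and 58 without vehicle-treated mouse 3. In the same fits the share of all tested genes called higher was 5.61%, 6.8% and 8.07%.

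Against naïve mice, the TD139-treated mice overlapped in 83 members. Every TD139-treated mouse was below every naïve mouse in 15 members, a share near the 15.1% of all genes, and above in 2, against 18.2%. In edgeR's test 0 members were higher than in naïve mice, against 2.72% of tested genes, and 3 were lower, against 2.38%. The 3 were Tgm4, Insl5 and 1600014C23Rik. With 1 mouse left out, 0 to 5 members were lower, and 0.0% to 7.49% of all tested genes. No gene was called lower when naïve mouse 1, naïve mouse 2, vehicle-treated mouse 2, TD139-treated mouse 2 or TD139-treated mouse 3 was left out, so the 3 calls were lost in each of these fits, as they were with the replicate number as a block, with the length and GC offset and with only the groups compared. At an unadjusted p under 0.05, in either direction, there were 18 members, against 29.6% of tested genes, and DESeq2 called 7 lower, against 7.8%. The median log2 fold change of the members was 0.07, beside -0.0023 over all tested genes.

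Each member was then placed between vehicle-treated mice (0%) and naïve mice (100%) by its mean log2(CPM + 0.5). The median position was 107.2%, the quartiles were 66.9% and 127.8%, and the range was -34.0% to 215.5%. Of the members, 55 were at or past the naïve mean, 30 were between 50 and 100%, 12 between 0 and 50% and 3 below the vehicle mean. In 75 members all TD139-treated mice were above the vehicle-treated ones and overlapped naïve mice, whereas in 10 they were below all naïve mice and not above all vehicle-treated mice.

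Among the farthest positions were those of Sntb2 (215%), Syt14 (212%), Slc26a2 (210.1%) and Ect2 (196%). Sntb2 encodes a syntrophin of the dystrophin complex and was at 13.5, 18.1 and 26.6 CPM in naïve mice, 12.1, 11.4 and 10.03 CPM in vehicle-treated mice and 20.8, 44.3 and 41.5 CPM in TD139-treated mice (log2 fold change 1.77 ± 0.33 (SE), adjusted p = 0.007 against vehicle-treated mice). Syt14, a synaptotagmin, was at 1.26, 1.56 and 2.75 CPM in naïve mice, 0.784, 0.715 and 1.22 CPM in vehicle-treated mice and 2.18, 4.5 and 4.16 CPM in TD139-treated mice (log2 fold change 2.09 ± 0.41 (SE), adjusted p = 0.0065). Slc26a2, a sulphate transporter, was at 10.02, 13.6 and 22.1 CPM in naïve mice, 9.23, 7.83 and 7.76 CPM in vehicle-treated mice and 16.9, 33.4 and 33.3 CPM in TD139-treated mice (log2 fold change 1.85 ± 0.34 (SE), adjusted p = 0.00652). In each of these 3 genes TD139-treated mice 2 and 3 were above every naïve mouse, and none passed the test against naïve mice (adjusted p = 0.108, 0.128 and 0.115). Ect2, an exchange factor of cell division, was at 3.16, 4.16 and 2.47 CPM in naïve mice, 2.2, 2.11 and 1.44 CPM in vehicle-treated mice and 3.32, 9.67 and 4.08 CPM in TD139-treated mice, and TD139-treated mouse 2 was far above the other 2 (log2 fold change 1.67 ± 0.41 (SE), adjusted p = 0.0136 against vehicle-treated mice, adjusted p = 0.0649 without that mouse). Its call was also lost without vehicle-treated mouse 3.

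At the other end were Ppp1r3g (-33.98%), F11 (-9.43%), 1600014C23Rik (-6.83%), Insl5 (10.2%) and Lat (23.8%). Ppp1r3g, which directs a phosphatase to glycogen, was at 8.65, 7.32 and 10.3 CPM in naïve mice, 4.82, 4.00 and 4.46 CPM in vehicle-treated mice and 2.94, 6.22 and 2.21 CPM in TD139-treated mice. TD139-treated mice 1 and 3 were below every vehicle-treated mouse, and the difference did not pass the test (log2 fold change -0.12 ± 0.34 (SE), adjusted p = 0.801). Insl5, an insulin-like peptide, was at 17.6, 22.2 and 17.99 CPM in naïve mice, 9.08, 9.83 and 12.2 CPM in vehicle-treated mice and 9.97, 14.1 and 9.42 CPM in TD139-treated mice, and its TD139-treated mice were below all naïve mice (log2 fold change -0.79 ± 0.19 (SE), adjusted p = 0.0458 against naïve mice). Tgm4, a transglutaminase, was also low, at 19.4, 23.8 and 24.1 CPM in naïve mice, 10.5, 10.3 and 14.7 CPM in vehicle-treated mice and 13.3, 15.00 and 13.5 CPM in TD139-treated mice (log2 fold change -0.69 ± 0.16 (SE), adjusted p = 0.0433 against naïve mice). For 1600014C23Rik the difference from naïve mice was the largest of the 3 (log2 fold change -1.33 ± 0.32 (SE), adjusted p = 0.0458). F11 was at 2.04, 2.83 and 3.33 CPM in naïve mice, 1.12, 1.61 and 1.76 CPM in vehicle-treated mice and 2.64, 1.26 and 0.725 CPM in TD139-treated mice, with TD139-treated mouse 1 within the naïve range and TD139-treated mouse 3 below every vehicle-treated mouse. Lat, an adaptor of T cell receptor signalling, was at 4.31, 4.39 and 2.86 CPM in naïve mice, 1.98, 1.93 and 2.59 CPM in vehicle-treated mice and 2.79, 2.28 and 2.36 CPM in TD139-treated mice (log2 fold change 0.28 ± 0.25 (SE), adjusted p = 0.398 against vehicle-treated mice). With the length and GC offset, Insl5 and Lat were higher than in vehicle-treated mice (adjusted p = 0.0267 and 0.0193), while under other alternatives adjusted p reached 0.902 and 0.587. Corrected for length and GC content as described further on, the positions of the 5 lowest became 3.72% for Ppp1r3g, 7.91% for F11, 42.6% for 1600014C23Rik, 61.4% for Insl5 and 75.4% for Lat, and the lowest of all was then Pdc, at 0.242% from 37.5%.

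The 3 TD139-treated mice differed in their levels of the members. Median positions over the members were 70.6% in mouse 1, 119.1% in mouse 2 and 121.2% in mouse 3. Mouse 1 was the lowest of the TD139-treated mice in 81 members, against 27.1% of all genes, a comparison within 1 group that the choice of members did not use. The same held for 53 of the 63 rod genes that were not members. Summed CPM of the rod list was 116055 in mouse 1, 137146 in mouse 2 and 127697 in mouse 3, and that of the microglia list was 216 in mouse 1, 68.3 in mouse 2 and 59.5 in mouse 3. The microglia list summed to 344 to 642 CPM with vehicle and to 81.1 to 85.1 CPM without light. The part of microglial RNA in the members' levels was not tested. The median position was 91.2% among males, with 1 naïve, 2 vehicle-treated and 2 TD139-treated mice, and 120.3% among females, with 2, 1 and 1, so that it rested on single mice in some groups.

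**Figure D4:**
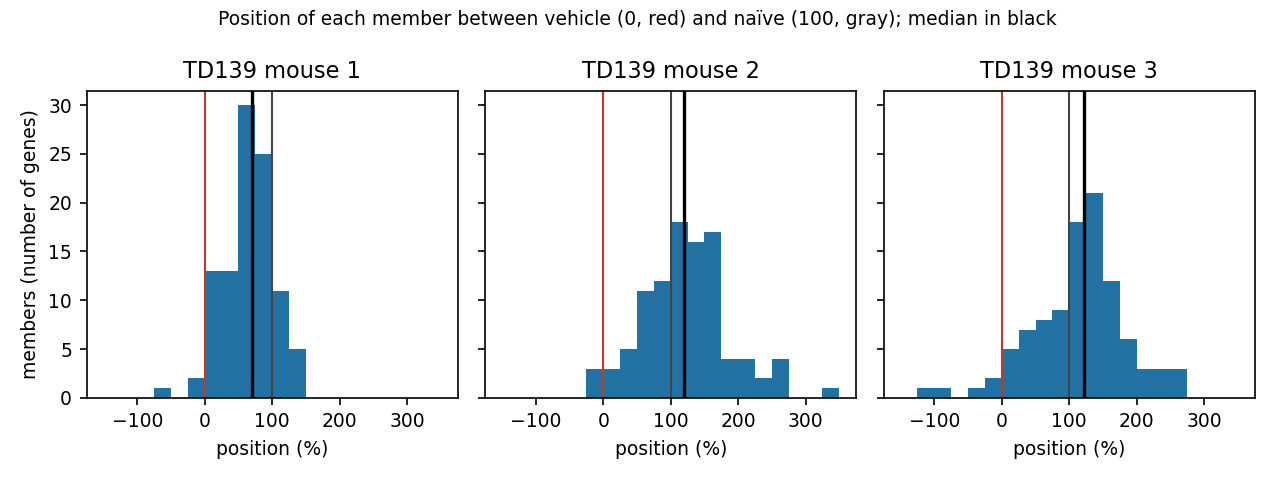
Number of members by their position between the mean of vehicle-treated mice (0%, red line) and that of naïve mice (100%, gray line) in each TD139-treated mouse, in bins of 25 percentage points, with the median as a black line. The median is 70.6% in mouse 1, left of the gray line, and 119.1% and 121.2% in mice 2 and 3, right of it.

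Position rose with transcript length. Length was taken from the longest annotated coding transcript, or from the longest transcript where none is coding. It had a median of 3753.5 nt in the members, against 3256 nt over all genes. The 33 members with the shortest transcripts (518 to 2828 nt) had a median position of 63.7%, the middle 33 one of 115.9% and the 32 longest (4911 to 16011 nt) one of 128.3%. All TD139-treated mice exceeded all vehicle-treated mice in 21 of the 33 shortest, 29 of the 33 middle and 31 of the 32 longest. Spearman's rho between position and length was 0.58 across 98 members, which come from the same 9 libraries and are not independent. When CPM was corrected for the trend of all genes with transcript length and GC content in each mouse, the medians became 86.5%, 97.1% and 95.5% and rho 0.07, and the median over all members was 92.5%. By mouse, the corrected median over the members was 55.4% in TD139-treated mouse 1, 116.0% in mouse 2 and 112.4% in mouse 3. After that correction 80 members were higher with TD139 than with vehicle, against 16.4% of tested genes. Against naïve mice 0 members were called, as were 0 of all 15196 genes, of which 1996 had an unadjusted p under 0.05. Over all tested genes the median difference between TD139 and vehicle became 0.12 on the log2 scale, from -0.02, and over the members it was 0.98.

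**Figure D5:**
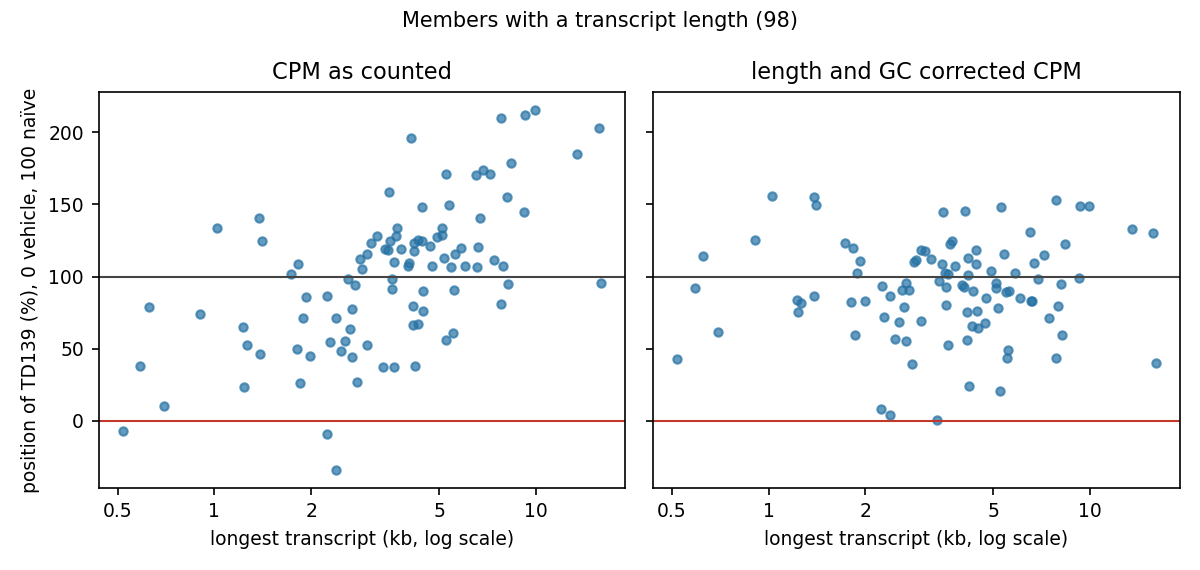
Position of TD139-treated mice between vehicle-treated (0%, red line) and naïve (100%, gray line) mice against transcript length in kb on a log axis, 1 point for each of 98 members, from CPM as counted (left) and from CPM corrected for length and GC content (right). Length is that of the longest coding transcript, or of the longest transcript where none is coding. The rise with length on the left, from a median of 63.7% in the shortest members to 128.3% in the longest, is absent on the right, where the corresponding medians are 86.5% and 95.5%.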

How the data were processed

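Retinal poly(A) RNA of 9 mice was sequenced as single 50-base reads on 2 flow cells. The deposited files, 1 per mouse and flow cell, hold the authors' whole-number counts of reads per gene from BaseSpace RNA Express and not normalized; the submitters' processing notes name mm10, and the aligner and annotation version are not given in the sources used here. The counts of both flow cells were summed for each mouse, leaving out reads outside genes (16.5 to 22.8%) and ambiguous reads. CPM were computed over gene reads. edgeR 4.0.16 (R 4.3.3) was used with filterByExpr, TMM, robust quasi-likelihood F tests, all 3 groups in 1 fit and Benjamini-Hochberg adjustment over 15196 genes; an adjusted p under 0.05 was called. The standard error is the log2 fold change divided by the square root of F. The steps were tested on simulated data. Alternatives were DESeq2 1.42.0, other scalings and filters, single flow cells, only the groups compared, the replicate number as a block, each mouse left out, and an offset for transcript length and GC content. Lengths and positions came from GENCODE M21 (98 of 100 members matched, 7 by an older symbol), and promoters from RefSeq. The members and lists were chosen with earlier results of these data known. Named with values were the 10 lowest ratios, members on a list, the 5 with most reads, the 5 highest and 5 lowest positions and the edge of the rule; others were chosen after their values were seen. Some members are counted in the totals but not reported here by name.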

Additional observations from a re-analysis of the deposited data

Results flagged for a closer look

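Reads outside genes, which entered no comparison, were 21.3% of reads in the lowest TD139-treated mouse and at most 19.9% in naïve and 19.4% in vehicle-treated mice. They were looked at because the share stood above that in the mice without TD139. All values of the members are relative to the reads on genes, and the part of these reads in the members' levels was not tested.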

How the results depend on the processing

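Without 1 naïve or vehicle-treated mouse, 55 to 80 of the 100 members were chosen again, fewest without naïve mouse 1 (55) and naïve mouse 3 (63); other settings shared 75 to 100. In the mouse left out, the list chosen without it had a median ratio of 0.590 to 0.798. The share of members higher with TD139 than with vehicle was 47% to 81% with a mouse left out (5.61% to 19.4% of all tested genes) and 70% to 80% otherwise (12.8% to 19.9%). Members lower in TD139-treated than in naïve mice were 3% in the reported fit, 7% with DESeq2, 1% on flow cell 1 alone, 6% and 1.5% of the 50 and 200 lowest ratios, 0% to 5% with a mouse left out, and 0% with the length and GC offset and with only the groups compared. With the replicate number as a block they were 0%, and in these 3 fits 0 of all tested genes were lower. Under the block 74 members were higher than in vehicle-treated mice, against 16.0% of all. The numbers do not pair the mice: correlations of same-numbered mice ran from -0.335 to 0.331. Median positions were 92.5% to 124% over these settings, and 91.2% among males and 120.3% among females. For single members, differences of TD139-treated from vehicle-treated mice that were not called changed sign in 4: 1600014C23Rik (0.69 with the length and GC offset, -0.35 to 0.28 with a mouse left out), Ppp1r3g (0.31 with that offset, -0.72 to 0.15), F11 (-0.46 to 0.43) and Insl5 (-0.035 to 0.31). The cause was not tested. Members near 50 counts have wide errors, and intervals cover these mice only.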
